A study of Mus musculus with 18 samples.

Results

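The genes that encode the ionotropic and metabotropic glutamate receptors of the mouse, with the auxiliary proteins that bind them, were followed through motor neuron (MN) differentiation and after induction of 4 Hox transcription factors. The members were taken by symbol: 34 of the 27179 genes in the count tables, 33 of them with at least 1 count in an induced library and therefore tested. Grm6, a group III metabotropic receptor best known from retinal bipolar cells, had 0 counts in all 18 libraries, where 3 counts correspond to between 0.0883 and 0.122 CPM (read counts scaled to the library's total, the unit of level used throughout), and was not tested.

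Glutamate is the main excitatory transmitter of the spinal cord. Ionotropic receptors are tetrameric ion channels of the AMPA, kainate, NMDA and delta families: AMPA receptors carry most of the fast current, NMDA receptors admit calcium and need an obligatory GluN1 subunit (Grin1) with GluN2 or GluN3 partners that set their kinetics, and kainate receptors combine low affinity subunits (Grik1, Grik2, Grik3) with high affinity ones (Grik4, Grik5). Metabotropic receptors are G protein-coupled: group I (Grm5) acts through Gq, whereas groups II and III (Grm2, Grm3, Grm4, Grm6, Grm7, Grm8) act through Gi and lower transmitter release. TARPs (the Cacng genes), cornichons (Cnih2, Cnih3) and NETO proteins bring these channels to the surface and shape their gating.

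RNA-seq was made from embryoid bodies that embryonic stem cells formed and that were patterned with 1 µM retinoic acid and 0.5 µM of the Hedgehog agonist SAG, which gives a mixture of MNs and interneurons. The 6 groups of 3 libraries were day 2 progenitors of the line Ainv15(iCre), day 4 control neurons of the line Ainv15(iFlag.Hoxc6) without doxycycline (Dox), and day 4 neurons of the iHoxc6, iHoxc8, iHoxc9 and iHoxc10 lines after 48 h of Dox at 3 µg/ml from day 2. Each Hox line, the uninduced control's included, carries a single Dox-inducible Flag-tagged Hox transgene at the HPRT locus, so every cell type could be induced. The day 2 line is labelled iCre and not by a Hox gene. No control of the iHoxc8, iHoxc9 or iHoxc10 lines without Dox was analysed here. The libraries fell into 4 sequencing runs: day 2 and iHoxc8 each had a run of their own, control shared one with iHoxc6, and iHoxc9 shared one with iHoxc10. In control against day 2, and for iHoxc8, iHoxc9 and iHoxc10 against control, group, line and run cannot be told apart. The iHoxc6 and control groups share line and run, and iHoxc9 and iHoxc10 share the run. All induced groups had Dox and control had none, so Dox and the induced Hox gene cannot be told apart in their comparisons with control.

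Total counts were between 24498630 and 33168533 per library. Each induced Hox gene was at 213 CPM or more in its own line, and Hoxc6 was also at 43.1 to 49.4 CPM in iHoxc10 against 1.8 to 5.17 CPM in control. Summed markers of neurons rose from at most 552 CPM at day 2 to at least 4874 CPM in every day 4 library, and the MN list (Mnx1, Isl1 and Chat among its 7 genes) summed to between 545 and 571 CPM in control. Gfap and Aqp4 (astrocytes), Mog (oligodendrocytes) and the endothelial, microglial and pluripotent cell markers were at or near 0 at day 4. The 3 astrocyte markers together reached 6.01 CPM in iHoxc8 against 1.69 to 2.57 CPM in control, nearly all of it Aldh1l1, and the 3 oligodendrocyte markers together summed to between 79.3 and 157 CPM. Because these are bulk samples, fewer cells of a type and less RNA per cell cannot be told apart.

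Promoter sequence was looked up because 10 of the members passed the test in both the iHoxc9 and the iHoxc10 comparison. Among all genes tested 7.94% did so. A RefSeq promoter window (GRCm38.p6) was matched for 23 of the 34 genes. The 250 bases before the start are shown, 5′ to 3′ on the gene's strand, for Grin2c, which moved in opposite directions in the 2 lines, for Grm8, which passed the study's thresholds in iHoxc10, and for Cacng5, the single member that passed in iHoxc6. The Grin2c window lies at chr11:115267244-115267493, the outermost Grm8 window at chr6:28135147-28135396 and the outermost Cacng5 window at chr11:107915056-107915305, all on the minus strand. The annotated span of Grin2c runs to position 115267297, so part of its window lies inside the gene. The Grm8 and Cacng5 windows lie outside the spans of their genes. Capitals mark matches on either strand to TAAT, the core preferred by anterior and central Hox proteins, or TTAT, preferred by posterior ones; matches to these 2 motifs can overlap.
Grin2c: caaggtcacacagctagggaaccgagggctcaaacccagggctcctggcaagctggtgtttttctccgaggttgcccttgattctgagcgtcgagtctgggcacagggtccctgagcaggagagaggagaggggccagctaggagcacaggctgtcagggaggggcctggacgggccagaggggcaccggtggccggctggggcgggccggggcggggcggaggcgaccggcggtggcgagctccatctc
Grm8: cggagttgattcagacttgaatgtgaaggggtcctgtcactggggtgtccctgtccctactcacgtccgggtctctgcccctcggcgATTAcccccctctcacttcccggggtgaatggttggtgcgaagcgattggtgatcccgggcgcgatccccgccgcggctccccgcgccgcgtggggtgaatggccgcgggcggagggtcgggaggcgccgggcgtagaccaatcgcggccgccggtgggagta
Cacng5: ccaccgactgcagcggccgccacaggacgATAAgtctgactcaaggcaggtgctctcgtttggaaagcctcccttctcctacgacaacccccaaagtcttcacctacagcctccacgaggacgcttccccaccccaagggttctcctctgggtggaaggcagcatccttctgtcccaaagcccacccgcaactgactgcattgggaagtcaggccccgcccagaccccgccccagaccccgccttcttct
No match lay in the Grin2c window, 1 TAAT match lay in the Grm8 window and 1 TTAT match in the Cacng5 window. Grm8 has 3 windows, of which 2 hold TAAT and 2 hold TTAT, so that the window shown, without TTAT, is the exception. Both Cacng5 windows hold TTAT and neither holds TAAT. TAAT was held by 7 of the 28 member windows (25%) against 54.9% of all 32851 windows of the same length, and TTAT by 11 of the 28 (39.3%) against 60.9%. The member windows were richer in G and C, with a median of 62% against 52.4% over all windows. A match is a description of the letters and says nothing of binding. The study reports that by far most Hox binding lay away from transcription starts, which these windows do not cover.

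**Figure D1:**
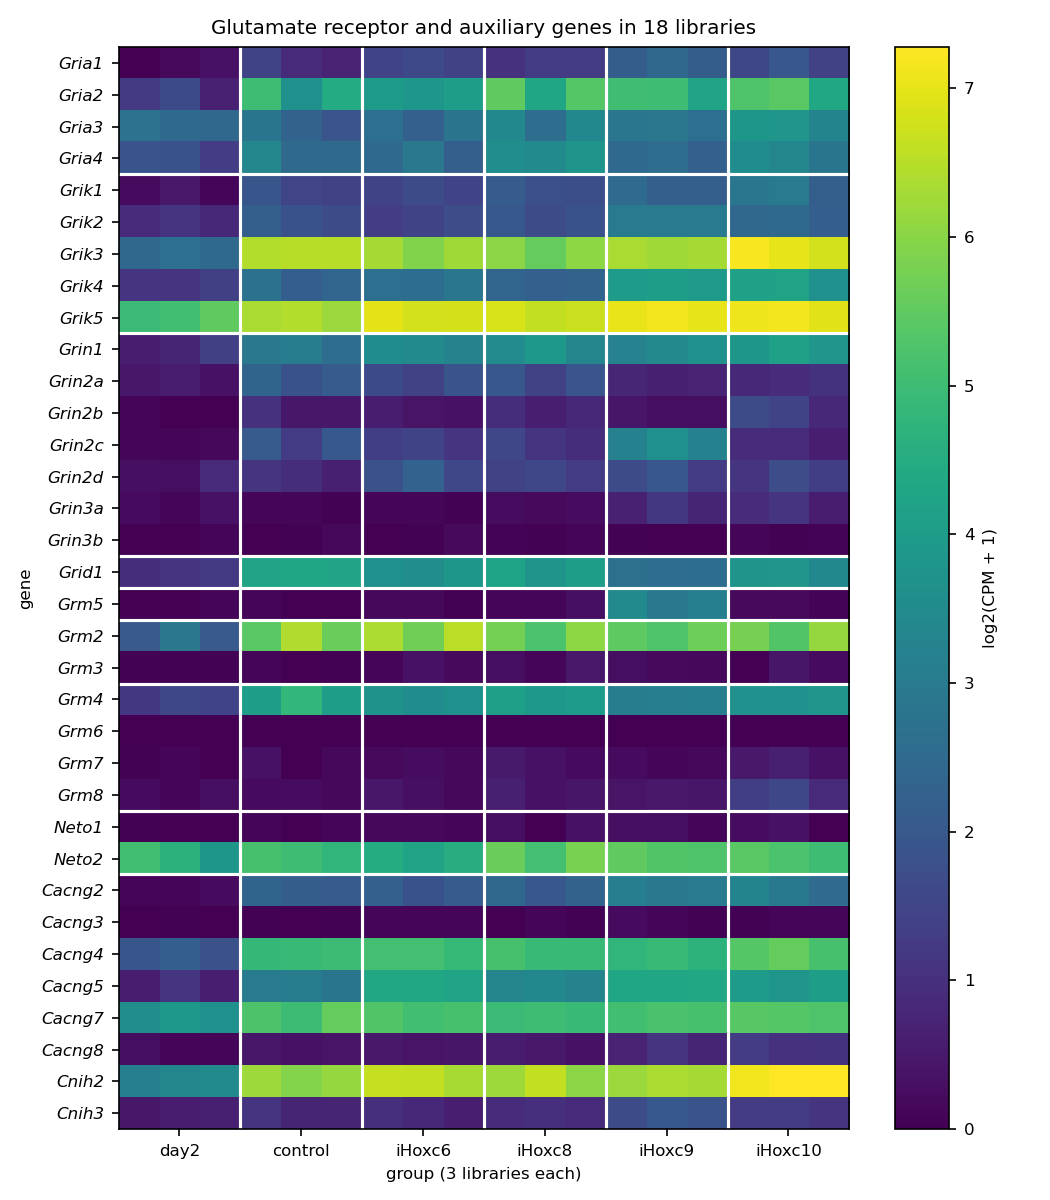
Level of the 34 genes (rows, grouped by receptor class and separated by white lines) in the 18 libraries (columns, 3 for each group), as log2(CPM + 1) on the colour scale. Most rows brighten between day 2 and day 4, the Cnih2, Grik5, Grik3 and Grm2 rows are the brightest at day 4, and the Grm5 row is bright in the 3 iHoxc9 libraries alone.

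Cnih2, Grik5, Cacng7, Grm2 and Grik3 were the most abundant members per kilobase in control neurons. At a mean of 1 CPM or more, 13 members were present at day 2 (38.2%) and 21 in control (61.8%), while the share over all genes tested stayed at 62.5% and 61.9%. Both brachial lines (iHoxc6 and iHoxc8) had 22 (64.7%), the iHoxc9 line 23 (67.6%) and the iHoxc10 line 24 (70.6%). The share over all genes tested lay between 61.6% and 62.1% in the induced groups. Levels were scaled per kilobase of exon to compare genes, a measure that depends on the exon lengths used. The highest in control was that of Cnih2, the cornichon that slows AMPA receptor closing, at 49.9 ± 4.98 CPM per kb (SD, n = 3). Grik5, the high affinity kainate subunit GluK5, followed at 21.1 ± 1.84 CPM per kb, and the TARP gene Cacng7 at 17.1 ± 3.49 CPM per kb. Grm2 was at 12.3 ± 4.94 CPM per kb and Grik3 at 9.81 ± 0.302 CPM per kb. Without this scaling Grik3 (88 ± 2.71 CPM) and Grik5 (79.5 ± 6.94 CPM) had higher means in control than Cnih2 (67 ± 6.69 CPM). With it, Cnih2 stood above Grik5 in every control library. The libraries of Grik5 and Cacng7, of Cacng7 and Grm2, and of Grm2 and Grik3 overlapped. At day 2 the order differed: Grik5 came first with 9.49 ± 1.95 CPM per kb and Cnih2 second with 6.7 ± 0.812 CPM per kb. In iHoxc10, Cnih2 reached 110.8 ± 6.1 CPM per kb, again above Grik5 in every library.

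Apart from Grm6, 6 members stayed under a mean of 1 CPM in all groups. These were the GluN3 subunits Grin3a and Grin3b, the metabotropic receptors Grm3 and Grm7, the kainate auxiliary Neto1 and the TARP gene Cacng3. Their highest single libraries were at 1.27 CPM for Grin3a, 0.139 CPM for Grin3b, 0.407 CPM for Grm3, 0.573 CPM for Grm7, 0.287 CPM for Neto1 and 0.156 CPM for Cacng3. Among these 6 only Grin3a passed in any of the 6 comparisons by the test over all 18 libraries. Grm7 passed between iHoxc9 and iHoxc10 in the fit of those 6 libraries with the replicate number as a block (log2 fold change -1.87, edgeR adjusted p = 0.00633).

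The comparison of control neurons with day 2 progenitors asked how the receptor set changed from progenitors to neurons. The changes went in 1 direction: 20 of the 33 tested members were higher at an adjusted p under 0.01, none was lower by edgeR (0 at an unadjusted p under 0.05 and 0 by DESeq2's Wald test), and 15 also passed the study's thresholds, which add an absolute log2 fold change above 2. Among all genes tested, 21.2% were higher and 21.2% lower at an adjusted p under 0.01, and 12.6% passed the study's thresholds. The members' median log2 fold change was 1.77, or 2.9 over the 25 members with more than 3 counts in a library of both groups, and that of all genes was 0. By class, all 5 kainate subunits, 3 of 4 AMPA subunits, 4 of 7 NMDA subunits, the delta subunit Grid1, Grm2 and Grm4 among the 6 metabotropic receptors tested, and 5 of 8 AMPA auxiliaries rose. The 7 neuron markers and the 4 markers of dividing cells moved between the same groups, the second from between 1357 and 1675 CPM at day 2 to between 338 and 743 CPM in control, and their part in these changes was not tested.

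Gria2 encodes GluA2, the AMPA subunit that makes edited receptors impermeable to calcium. It was at 1.35, 2.1 and 0.593 CPM at day 2 and at 31.4, 11.5 and 21.4 CPM in control. The groups did not overlap, although the control libraries spread widely (log2 fold change 4.00 ± 0.43 SE, edgeR adjusted p = 5.44e-08). Gria1, which encodes GluA1, was at 0, 0.133 and 0.281 CPM at day 2 and at 1.8, 0.847 and 0.636 CPM in control, a log2 fold change of 2.94 ± 0.52 (edgeR adjusted p = 5.11e-05). Gria4 rose by a log2 fold change of 1.48 ± 0.29 (edgeR adjusted p = 0.000165). Gria3 did not pass, with 5.02 ± 0.734 CPM at day 2 and 4.3 ± 1.72 CPM in control.

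Per kilobase, Gria3 therefore made up 64.8% ± 6.67 of the AMPA sum at day 2 and 20.3% ± 6.04 in control, while Gria2 went from 8.71% ± 4.38 to 50.2% ± 9.71 (SD, n = 3). The AMPA sum was 1.43 ± 0.234 CPM per kb at day 2 and 4.02 ± 1.68 CPM per kb in control. The libraries of the 2 groups did not overlap in either share. Shares are descriptions and were not tested.

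The kainate subunits all rose. Grik3, a low affinity subunit, was at 4.41, 5.33 and 4.65 CPM at day 2 and at 84.9, 89.1 and 90 CPM in control, a log2 fold change of 4.20 ± 0.17 (edgeR adjusted p = 1.3e-14). Grik1 was at 0.168, 0.399 and 0.0937 CPM at day 2 and at 2.86, 1.85 and 1.72 CPM in control, a log2 fold change of 3.28 ± 0.39 (edgeR adjusted p = 2.61e-07). Grik5 was already present at day 2, with 30, 33 and 44 CPM, and reached 80.5, 85.8 and 72 CPM in control. Its log2 fold change of 1.15 ± 0.14 was the smallest of the family (edgeR adjusted p = 2.89e-07). Grik5 made up 91.2% ± 1.59 of the kainate sum at day 2 and 65% ± 2.15 in control, and Grik3 5.26% ± 1.02 and 30.3% ± 2.24.

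NMDA subunits started near the floor. Grin1, the obligatory subunit, was at 0.472, 0.699 and 1.62 CPM at day 2 and at 6.55, 7.28 and 5.02 CPM in control, a log2 fold change of 2.73 ± 0.30 (edgeR adjusted p = 5.23e-08). An antisense gene, Grin1os, overlaps 29.9% of the exon length of Grin1, and the sources used here do not state whether counting used the strand, so its counts are uncertain to that extent. Grin2a was at 0.371, 0.466 and 0.281 CPM at day 2 and at 4.05, 2.54 and 3.33 CPM in control, a log2 fold change of 3.14 ± 0.31 (edgeR adjusted p = 1.3e-08). Grin2c, a subunit best known from cerebellar granule cells, was at 0.0674, 0.0998 and 0.125 CPM at day 2 and at 3.28, 1.39 and 3.03 CPM in control, a log2 fold change of 4.66 ± 0.45 (edgeR adjusted p = 9.54e-09). Both GluN2 genes were separated between the groups in every library. Grin2b had 2 counts over the 3 day 2 libraries and 53 over the 3 control libraries, a ratio of 29 after scaling with an exact 95% interval from 7.64 to 245.8 that covers counting error only (edgeR adjusted p = 4.38e-05).

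Grid1 encodes a delta receptor that binds cerebellins and organizes synapses. It was at 0.943, 1.13 and 1.34 CPM at day 2 and at 17.9, 18.6 and 18 CPM in control, a log2 fold change of 3.98 ± 0.19 (edgeR adjusted p = 8.93e-14). Grm2, a group II autoreceptor, was at 3.13, 6.42 and 3.09 CPM at day 2 and at 41.3, 84.6 and 48.2 CPM in control, a log2 fold change of 3.78 ± 0.33 (edgeR adjusted p = 1.92e-09). Control replicate 2 was the highest of the 3 both for Grm2 and for Grm4. Grm4, of group III, was at 1.25, 1.96 and 1.75 CPM at day 2 and at 15.7, 27.1 and 15.8 CPM in control, a log2 fold change of 3.56 ± 0.22 (edgeR adjusted p = 3.83e-12).

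Among the auxiliaries, Cacng2, which encodes the TARP stargazin, was at 0.101, 0.0998 and 0.156 CPM at day 2 and at 4.05, 3.39 and 3.18 CPM in control, a log2 fold change of 4.84 ± 0.34 (edgeR adjusted p = 3.97e-11). Cacng4 was at 2.83, 3.53 and 2.47 CPM at day 2 and at 28, 29.2 and 30.8 CPM in control, a log2 fold change of 3.32 ± 0.16 (edgeR adjusted p = 1.27e-13). Both TARP genes were higher in every control library. Cacng5 was at 0.472, 1.13 and 0.531 CPM at day 2 and at 6.97, 7.32 and 6.1 CPM in control, a log2 fold change of 3.25 ± 0.22 (edgeR adjusted p = 3.05e-11). Cnih2 was at 7.82, 9.22 and 9.96 CPM at day 2 and at 72.7, 59.6 and 68.6 CPM in control, a log2 fold change of 2.90 ± 0.16 (edgeR adjusted p = 7.64e-13). The TARP gene Cacng7 was at 11.1, 13.7 and 11.7 CPM at day 2 and at 36.7, 30.8 and 46.1 CPM in control, so that it was well above the floor before neurons formed. Its log2 fold change was 1.64 ± 0.14 (edgeR adjusted p = 1.84e-09). Neto2, a kainate receptor auxiliary, did not pass and had 23.5 ± 9.86 CPM at day 2 and 30.8 ± 4.05 CPM in control.

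**Figure D2:**
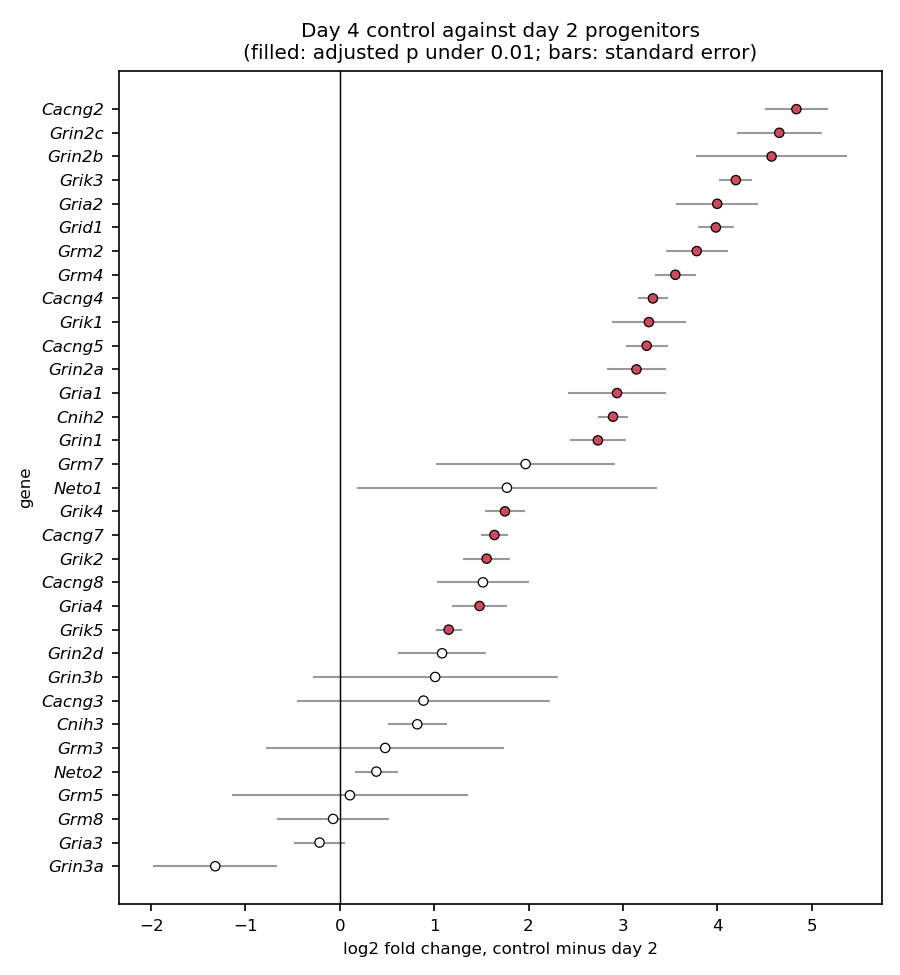
Log2 fold change of the 33 tested genes, control neurons minus day 2 progenitors (points, with bars for the standard error), filled where the adjusted p was under 0.01. The 20 filled points all lie to the right of 0, from Grik5 at 1.15 to Cacng2 at 4.84.

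The postsynaptic list, 39 genes for scaffolds, kinases, AMPA receptor partners and synaptic organizers, moved in the same direction: 26 were higher, 1 was lower and 15 passed the study's thresholds, with a median log2 fold change of 1.53. The largest changes were those of the cerebellin genes Cbln1 (5.65 ± 0.29 on the log2 scale) and Cbln4 (272 counts in control against 6 at day 2, a scaled ratio of 49.6 with an exact 95% interval from 22.5 to 136.4), of Gsg1l (4.46 ± 0.35), an AMPA receptor auxiliary, and of the synaptic organizer Lrrtm2 (4.23 ± 0.42). Cerebellins are secreted partners of delta receptors.

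Induction of Hoxc6, a brachial Hox gene, was compared with uninduced neurons of the same line and run. Among the 33 members 1 was higher and none lower at an adjusted p under 0.01 by edgeR, and none passed the study's thresholds by edgeR or DESeq2. Among all genes tested 0.363% were higher, 0.224% were lower and 0.115% passed the study's thresholds. At an unadjusted p under 0.05, 5 members were higher and 7 lower, and DESeq2's Wald test called 3 higher and 2 lower. Over all genes the unadjusted shares were 9.47% higher and 11.8% lower, and DESeq2's Wald test called 0.988% higher and 1.73% lower. The MN markers summed to between 391.5 and 445.5 CPM in iHoxc6 against 544.5 to 570.8 CPM in control, the 9 interneuron markers to between 11.2 and 13.4 CPM against 16.1 to 19.5 CPM, and the sensory and neural crest markers to between 44.9 and 62.3 CPM against 21.3 to 40.6 CPM. Astrocyte markers summed to between 3.44 and 5.85 CPM against 1.69 to 2.57 CPM, and the part of these markers in the member changes was not tested. The member that rose was Cacng5, which encodes the TARP known as gamma-5. It was at 6.97, 7.32 and 6.1 CPM in control and at 19.3, 19.3 and 18.2 CPM in iHoxc6. No iHoxc6 library overlapped control, and the log2 fold change was 1.48 ± 0.18 (edgeR adjusted p = 5.35e-05). Grin2d, the GluN2 subunit typical of early development, had the largest change among members above the floor that did not pass: 2.77 ± 0.983 CPM in iHoxc6 against 0.891 ± 0.315 CPM in control, a log2 fold change of 1.63 ± 0.39 (edgeR adjusted p = 0.0291). Grin2d, Grik5, Grid1 and Grm4 were the other genes that DESeq2's Wald test called, with log2 fold changes of 1.59, 0.50, -0.63 and -0.79. None of the 39 postsynaptic genes passed by edgeR or by DESeq2's Wald test, and 10 had an unadjusted p under 0.05.

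Induction of Hoxc8, a second brachial gene, left no member past an adjusted p of 0.01 by edgeR. Of all genes tested, 1.03% were higher, 1.09% were lower and 0.22% passed the study's thresholds. At an unadjusted p under 0.05 the count was 13 members, 10 higher and 3 lower, against 23.2% of all genes in either direction. DESeq2's Wald test called 1 member, Grik3, lower, against 6.38% of all genes in either direction. The members' median log2 fold change was 0.326, or 0.229 over the 27 with more than 3 counts in a library of both groups. That of all genes was 0.0171. The MN markers summed to between 431.1 and 467.8 CPM in iHoxc8, below the 544.5 to 570.8 CPM of control, and the astrocyte markers to between 4.35 and 6.01 CPM against 1.69 to 2.57 CPM, and their part was not tested. Neither tool put a member past the study's thresholds. Grik3 was at 63.6, 46.3 and 65.3 CPM in iHoxc8, below the 84.9, 89.1 and 90 CPM of control in every library, with a log2 fold change of -0.59 ± 0.15 (edgeR adjusted p = 0.0174). Gria2 spread from 18.8 to 43.9 CPM among the iHoxc8 libraries and overlapped control. In the postsynaptic list 2 genes rose and none fell by edgeR (4 lower at an unadjusted p under 0.05, and 1 lower by DESeq2). They are named here because they were the 2 that passed, after their values were seen: Cbln2 (log2 fold change 1.17 ± 0.24) and Cbln4, at 8.95 ± 0.827 CPM against 3.12 ± 1.98 CPM in control.

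Induction of the thoracic gene Hoxc9 was followed by changes in 14 of the 33 members. At an adjusted p under 0.01, 11 were higher and 3 lower, and 3 passed the study's thresholds: Grm5 and Grin3a higher, Grin2a lower. The background over all genes was 6.95% higher, 7.13% lower and 2.7% past the study's thresholds. The members' median log2 fold change was 0.74, or 0.47 over the 27 with more than 3 counts in a library of both groups, against 0.00126 over all genes. By class, 3 of 5 kainate subunits, 4 of 8 AMPA auxiliaries, 1 of 4 AMPA subunits and 2 of 7 NMDA subunits rose. The MN markers summed to between 298 and 324 CPM in iHoxc9 against 545 to 571 CPM in control, and 9 interneuron markers to between 22.6 and 27.5 CPM against 16.1 to 19.5 CPM. Chosen after its values were seen, Sim1 of the second list was higher in every iHoxc9 library (15.2 to 19.6 CPM against at most 0.739 CPM in control), while Lhx1 was lower (3.76 to 4.06 CPM against 12.2 to 15.2 CPM). The sensory and neural crest markers summed to between 10.4 and 11.7 CPM against 21.3 to 40.6 CPM. The part of these cell type markers in the member changes was not tested.

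Grm5, which encodes the group I receptor mGluR5, had the largest fold change of all members in any comparison. It was at 9.86, 6.5 and 7.88 CPM in iHoxc9 and at 0.0642, 0 and 0 CPM in control. No other group had a library above 0.219 CPM. Summed over libraries this was 671 counts in iHoxc9 against 2 in control, a scaled ratio of 332.1 with an exact 95% interval from 91.6 to 2748.1 for counting error only (log2 fold change 8.17 ± 0.55 SE, edgeR adjusted p = 3.6e-10). In iHoxc6, iHoxc8 and iHoxc10 the 3 libraries together held 8, 13 and 9 counts, and none of those comparisons with control passed.

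The NMDA receptor genes changed in composition. Grin2c was at 8.14, 11.6 and 8.24 CPM in iHoxc9, above the 3.28, 1.39 and 3.03 CPM of control in every library (log2 fold change 1.86 ± 0.29, edgeR adjusted p = 6.3e-05). Grin2a fell to 0.704, 0.559 and 0.637 CPM from 4.05, 2.54 and 3.33 CPM in control, a log2 fold change of -2.39 ± 0.29 (edgeR adjusted p = 2.78e-06). Grin3a, a GluN3 subunit that lowers calcium entry, was at 0.587, 1.27 and 0.677 CPM against 0.0964, 0.077 and 0.0374 CPM in control. Its counts were 75 against 6 over the 3 libraries, a scaled ratio of 12.4 with an exact 95% interval from 5.43 to 34.8 (edgeR adjusted p = 5.2e-05). Grin2c made up 82.1% ± 2.92 of the GluN2 sum per kilobase in iHoxc9 and 55.3% ± 9.83 in control, while Grin2a made up 1.95% ± 0.544 and 25% ± 2.41 (SD, n = 3). The libraries of the 2 groups did not overlap in either share.

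The high affinity kainate subunit Grik4 was at 14.9, 15.8 and 14.2 CPM in iHoxc9 and at 5.53, 3.5 and 4.23 CPM in control, a log2 fold change of 1.76 ± 0.19 (edgeR adjusted p = 6.18e-07). Grik5 was at 130, 140 and 129 CPM in iHoxc9, a log2 fold change of 0.74 ± 0.14 (edgeR adjusted p = 0.000413). The low affinity subunit Grik2 was at 6.81, 7 and 6.85 CPM in iHoxc9 and at 3.57, 2.54 and 2.17 CPM in control, a log2 fold change of 1.31 ± 0.22 (edgeR adjusted p = 0.000145). Grik3, the most abundant low affinity subunit, had 77.4 ± 3.4 CPM against 88 ± 2.71 CPM in control and did not pass. The kainate sum was 48.1 ± 1.41 CPM per kb in iHoxc9 and 32.4 ± 1.78 CPM per kb in control.

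Gria1 was the single AMPA subunit that rose, to 3.4, 4.39 and 3.42 CPM (log2 fold change 1.75 ± 0.37, edgeR adjusted p = 0.00129). Its call was lost without control replicate 3 or without iHoxc9 replicate 2 (highest adjusted p = 0.0158). Cacng5 was at 18.8, 18.4 and 19.4 CPM, a log2 fold change of 1.47 ± 0.18 (edgeR adjusted p = 2.41e-06). The cornichon gene Cnih3 rose to 2.62 ± 0.386 CPM from 0.841 ± 0.273 CPM (log2 fold change 1.63 ± 0.27) and Cacng2 to 7.05 ± 0.514 CPM from 3.54 ± 0.452 CPM (0.99 ± 0.22). The call of Cacng2 was lost without control replicate 3 or without iHoxc9 replicate 1 (highest adjusted p = 0.018). Cacng8, at 0.83 ± 0.275 CPM against 0.318 ± 0.0602 CPM, passed with an edgeR adjusted p of 0.0087 and lost the call under 10 of 12 alternatives, with adjusted p from 0.00629 to 0.101.

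Grid1 fell to 5.48, 5.12 and 5.17 CPM from 17.9, 18.6 and 18 CPM in control with no overlap between the groups (log2 fold change -1.79 ± 0.17, edgeR adjusted p = 4.56e-08). Grm4 fell to 7.39, 7.62 and 7.76 CPM, a log2 fold change of -1.36 ± 0.19 (edgeR adjusted p = 1.52e-05). Grm2 had 43.7 ± 6.19 CPM against 58 ± 23.3 CPM in control and did not pass. In the postsynaptic list 8 of 39 genes were higher and 4 lower. The scaffold gene Dlg2 (log2 fold change 3.94 ± 0.22) and the organizer Lrrtm1 (3.32 ± 0.22) rose, and Cbln1 (-2.82 ± 0.24) fell, as did Shisa9, which encodes an AMPA receptor partner (4 counts in iHoxc9 against 42 in control, a scaled ratio of control to iHoxc9 of 10.6 with an exact 95% interval from 3.85 to 40.7). Cbln1, which encodes 1 of the cerebellin ligands of delta receptors, was at 18.8, 28.5 and 19.7 CPM in iHoxc9. It was at 145, 146 and 182 CPM in control. Cbln1 and Grid1 were both lower in every iHoxc9 library, and a link between them was not tested. Of the 10 synaptic organizers, the cerebellins among them, 5 were higher and 2 lower in iHoxc9.

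**Figure D3:**
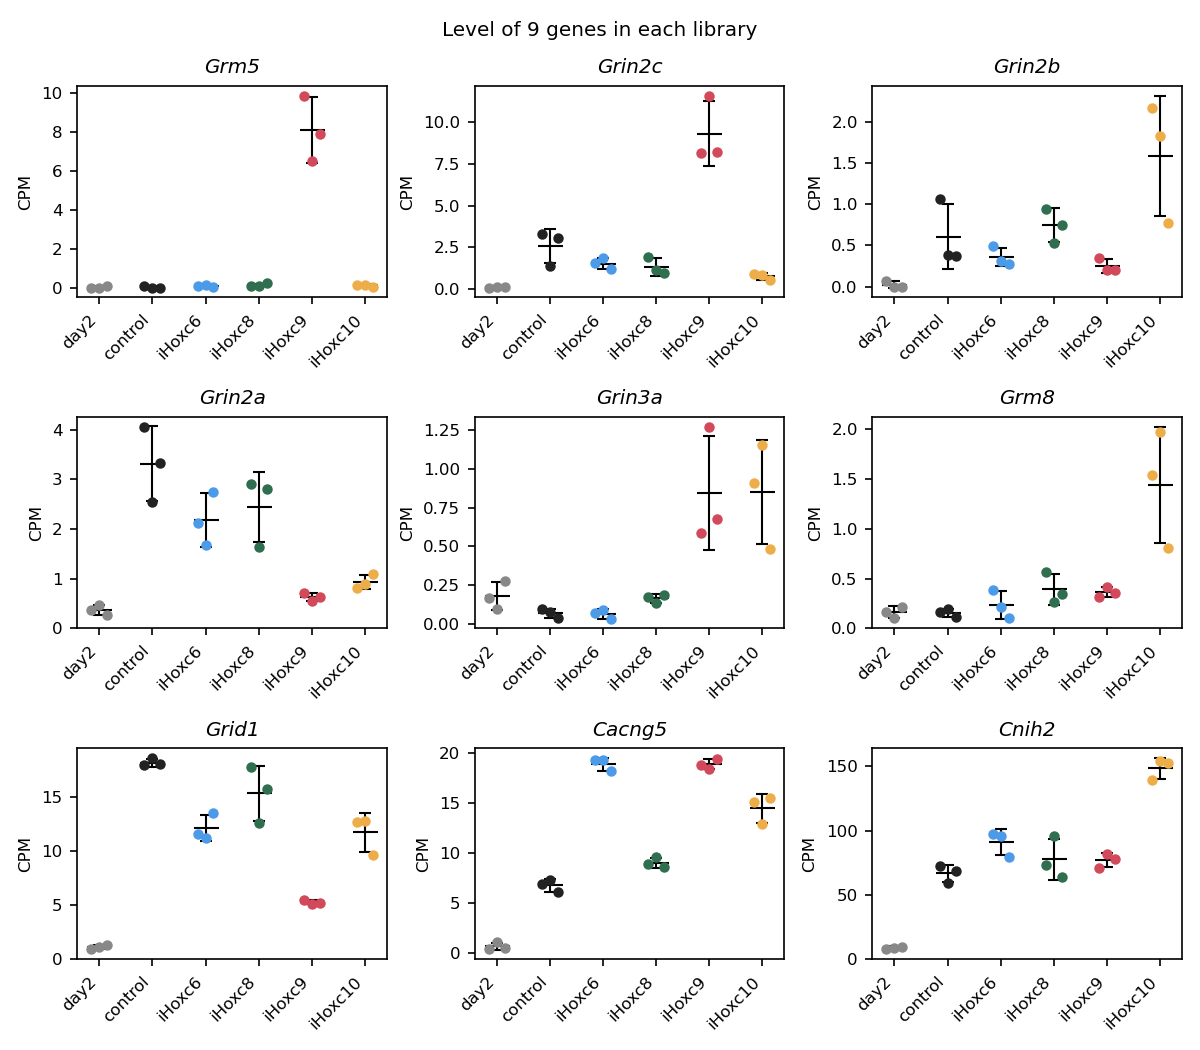
CPM of 9 genes in each library (points, 3 per group), with the group mean and SD (bars). Grm5 sits above 6 CPM in the 3 iHoxc9 libraries and at 0.219 CPM or less in all others, Grin2c is highest in iHoxc9 and lower than control in iHoxc10, and Cnih2 is highest in iHoxc10.

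Induction of the lumbar gene Hoxc10 was followed by changes in 15 of the 33 members, 11 higher and 4 lower, of which Grin3a and Grm8 passed the study's thresholds. Over all genes tested, 6.67% were higher, 7.75% were lower and 1.48% passed the study's thresholds. The members' median log2 fold change was 0.92, or 0.74 over the 27 with more than 3 counts in a library of both groups, and that of all genes was 0. The MN markers summed to between 486 and 547 CPM, and the 9 interneuron markers to between 63.4 and 86.6 CPM against 16.1 to 19.5 CPM in control. Lhx1 made up most of the second sum, with 77.1, 66.2 and 55.3 CPM. The neuron markers summed to between 5914.8 and 7071.2 CPM against 4874 to 5356.3 CPM in control, and the oligodendrocyte markers to between 124.5 and 156.5 CPM against 79.3 to 100.1 CPM. The part of these markers was not tested.

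Grm8, a group III receptor, was at 1.54, 1.97 and 0.81 CPM in iHoxc10 and at 0.161, 0.193 and 0.112 CPM in control, a log2 fold change of 3.19 ± 0.46 (edgeR adjusted p = 3.39e-05). All other groups had libraries of 0.562 CPM or less. Grin3a was at 0.91, 1.15 and 0.486 CPM, or 70 counts against 6 in control, a scaled ratio of 12 with an exact 95% interval from 5.27 to 33.9 (edgeR adjusted p = 6.81e-05).

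Grin2c fell in this line, to 0.91, 0.86 and 0.527 CPM, below every control library (log2 fold change -1.73 ± 0.33, edgeR adjusted p = 0.000604). Grin2a was at 0.805, 0.896 and 1.09 CPM, a log2 fold change of -1.83 ± 0.28 (edgeR adjusted p = 6.31e-05). Grin1 was at 13.5, 16.8 and 12.8 CPM against 6.55, 7.28 and 5.02 CPM in control, a log2 fold change of 1.19 ± 0.25 (edgeR adjusted p = 0.00125). The Grin1 call was lost without control replicate 3 or without iHoxc10 replicate 2 (highest adjusted p = 0.0119). Grin2d held 48.8% ± 10.4 of the GluN2 sum in iHoxc10 and 17% ± 7.4 in control, and Grin2c 27.8% ± 6.72 and 55.3% ± 9.83. Grin2d did not pass, at 1.66 ± 0.579 CPM against 0.891 ± 0.315 CPM, and the GluN2 sum was 0.549 ± 0.114 CPM per kb in iHoxc10 against 0.9 ± 0.274 CPM per kb in control. The shares were not particular to iHoxc10. Grin2d held 48.4% ± 7.04 in iHoxc6 and 38% ± 8.03 in iHoxc8, and Grin2c 33% ± 1.71 and 35.3% ± 7.26.

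Cnih2, the most abundant member per kilobase, was at 139, 154 and 153 CPM in iHoxc10, above the 72.7, 59.6 and 68.6 CPM of control in every library (log2 fold change 1.15 ± 0.15, edgeR adjusted p = 8.64e-06). Grik4 was at 17.1, 17.4 and 11.5 CPM, a log2 fold change of 1.79 ± 0.19 (edgeR adjusted p = 1e-06). Gria3 rose to 13.3, 12.8 and 8.71 CPM from 6.17, 3.97 and 2.77 CPM in control (1.43 ± 0.27 on the log2 scale). Grik1 rose to 5.68 ± 1.84 CPM from 2.14 ± 0.623 CPM and Cacng8 to 1.19 ± 0.183 CPM from 0.318 ± 0.0602 CPM. The Grik1 call was lost without control replicate 3 or without iHoxc10 replicate 2 (highest adjusted p = 0.0105).

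Grik5 rose by a log2 fold change of 0.74 ± 0.14, Cacng5 by 1.09 ± 0.18 and Cacng2 by 0.92 ± 0.22. Grid1 and Grm4 were lower by small amounts, with log2 fold changes of -0.63 ± 0.16 and -0.68 ± 0.18. The calls of Grid1 and Grm4 were each lost under 6 of 12 alternatives (highest adjusted p = 0.0473 and 0.0886), among them leaving out any 1 iHoxc10 library, and that of Cacng2 under 4 (highest adjusted p = 0.043). In the postsynaptic list 14 of 39 genes were higher, 7 of them scaffolds and 3 kinases, and 1 was lower. Cbln4 rose (log2 fold change 2.39 ± 0.34) and Cbln1 fell (-2.40 ± 0.24).

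**Figure D4:**
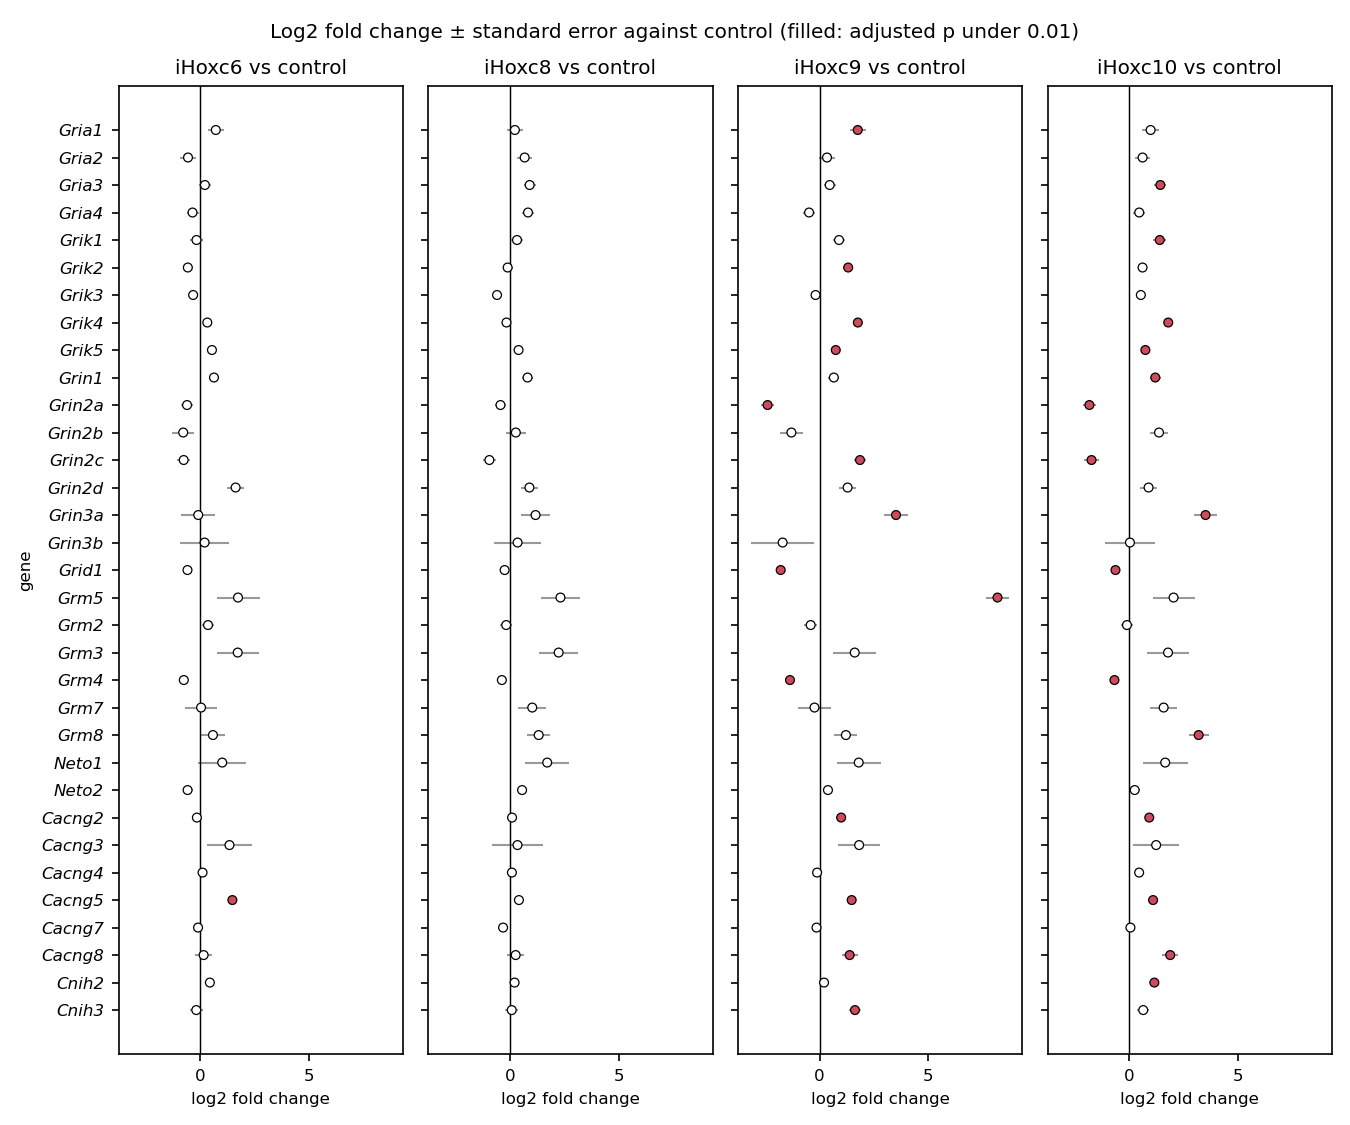
Log2 fold change against control of the 33 tested genes in the 4 induced groups (points, with bars for the standard error), filled where the adjusted p was under 0.01. There is 1 filled point for iHoxc6 (Cacng5), none for iHoxc8, 14 for iHoxc9 and 15 for iHoxc10, and Grin2c lies to the right of 0 in iHoxc9 and to the left in iHoxc10.

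Across the 4 induced groups 19 of the 33 tested members passed in at least 1 comparison with control and 14 in none, while 20.9% of all genes tested passed in at least 1. These comparisons share the control libraries. Among all genes 7.94% passed in both iHoxc9 and iHoxc10, and 98.6% of those had the same direction. Of the 10 members that passed in both iHoxc9 and iHoxc10, 9 had the same direction: Grik4, Grik5, Grin3a, Cacng2, Cacng5 and Cacng8 higher, and Grin2a, Grid1 and Grm4 lower. Grin2c was the exception.

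The direct comparison of iHoxc9 with iHoxc10, thoracic with lumbar and within 1 sequencing run, shared no control. It gave 2 members higher in iHoxc9 and 5 lower at an adjusted p under 0.01, with 3 past the study's thresholds. Over all genes tested 2.6% were higher, 2.4% were lower and 1.31% passed the study's thresholds. The members' median log2 fold change was -0.27, against 0.0266 for all genes. Libraries of the same number deviated together in these 2 groups, and a fit that took the replicate number as a block called 8 members over all 18 libraries and 21 with only the 6 libraries of the pair. The same 6 libraries without the block gave 14. Over all genes tested, those fits called 4.77% with the block over 18 libraries, 27.6% with the block on the pair and 10.5% on the pair without it. The MN markers summed to between 298.5 and 323.7 CPM in iHoxc9 and 486 to 546.9 CPM in iHoxc10, the interneuron markers to between 22.6 and 27.5 CPM and 63.4 to 86.6 CPM, and the sensory and neural crest markers to between 10.4 and 11.7 CPM and 23.1 to 29.5 CPM. Progenitor markers summed to between 518.8 and 574.2 CPM in iHoxc9 and 365 to 401.1 CPM in iHoxc10, markers of dividing cells to between 528.8 and 572.5 CPM and 312 to 387.6 CPM, and oligodendrocyte markers to between 85.1 and 95.4 CPM and 124.5 to 156.5 CPM. None of these ranges overlapped, and their part in the member differences was not tested. The member added over all libraries was the TARP gene Cacng4, lower in iHoxc9 by a log2 fold change of -0.56 with the block (edgeR adjusted p = 0.00972).

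Grm5 differed most, with 9.86, 6.5 and 7.88 CPM in iHoxc9 and 0.14, 0.143 and 0.0405 CPM in iHoxc10, a log2 fold change of 6.14 ± 0.45 (edgeR adjusted p = 2.56e-09). Grin2c was at 8.14, 11.6 and 8.24 CPM against 0.91, 0.86 and 0.527 CPM, a log2 fold change of 3.59 ± 0.33 (edgeR adjusted p = 9.56e-08). Grin2b, the main GluN2 subunit of immature forebrain neurons, went the other way, with 0.352, 0.206 and 0.199 CPM in iHoxc9 and 2.17, 1.83 and 0.77 CPM in iHoxc10 (log2 fold change -2.66 ± 0.50, edgeR adjusted p = 0.000902). The groups did not overlap for any of these 3 genes. Grin2b did not pass against control in either line.

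Cnih2 was lower in iHoxc9 (71.4, 82.3 and 77.9 CPM) than in iHoxc10 (139, 154 and 153 CPM), with a log2 fold change of -0.95 ± 0.15 (edgeR adjusted p = 0.000112). Grid1 was lower in iHoxc9 by a log2 fold change of -1.15 ± 0.17 (edgeR adjusted p = 4.35e-05). Grik3 was at 80.8, 74 and 77.3 CPM in iHoxc9 and at 147, 126 and 108 CPM in iHoxc10, a log2 fold change of -0.72 ± 0.15 (edgeR adjusted p = 0.00235). Grm8 was lower in iHoxc9 by a log2 fold change of -1.98 ± 0.40 (edgeR adjusted p = 0.00204). The calls of Grik3 and Grm8 were lost when some single libraries of either group were left out (highest adjusted p = 0.024 and 0.0231).

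By DESeq2's Wald test 2 members were higher in iHoxc9 and 8 lower, and 1534 of all genes were called. The AMPA subunits Gria3 and Gria4 did not pass by edgeR with all 18 libraries (adjusted p = 0.0223 and 0.0352). Both passed in the fits restricted to the pair. Gria3 had an edgeR adjusted p of 0.000214 with the 6 libraries alone and a log2 fold change of -0.99 with the block as well, and Gria4 an edgeR adjusted p of 0.00138 and a log2 fold change of -0.97. In the postsynaptic list 5 genes were higher in iHoxc9 and 6 lower. Lrrtm1 (log2 fold change 3.12 ± 0.21), Cbln2 (2.90 ± 0.25) and Dlg2 (2.85 ± 0.21) were higher in iHoxc9, and Cbln4 was lower (-4.09 ± 0.38), at 1.1, 1.12 and 0.677 CPM against 18.2, 20.5 and 11 CPM.

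**Figure D5:**
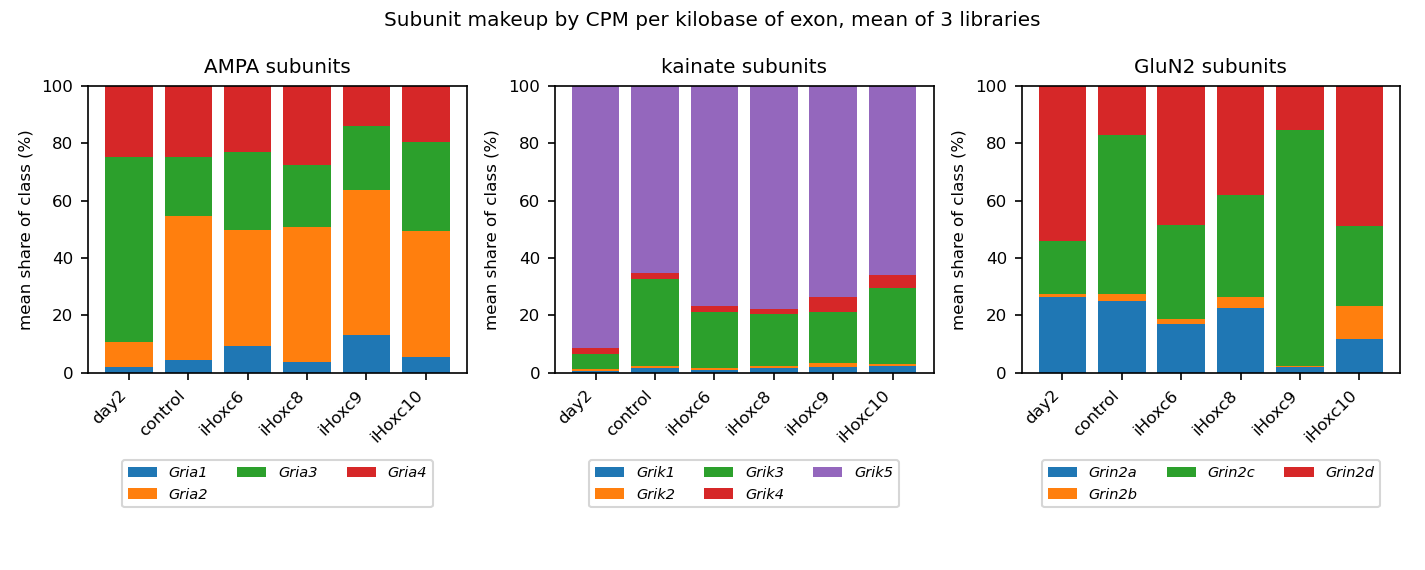
Mean share of each subunit in the sum of its class (AMPA, kainate or GluN2), from CPM per kilobase of exon, in the 6 groups (stacked bars, mean of 3 libraries). Grin2c fills 82.1% of the GluN2 bar in iHoxc9 and 27.8% in iHoxc10, Gria3 fills 64.8% of the AMPA bar at day 2, and Grik5 fills between 65% and 91.2% of the kainate bar.

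Per kilobase of exon, 1 subunit led in all day 4 groups in the AMPA and in the kainate class. Gria2 held between 40.7% and 50.7% of the AMPA sum in the 5 day 4 groups, and Grik5 between 65% and 77.6% of the kainate sum. Within GluN2, Grin2c ranged from 27.8% to 82.1% and Grin2d from 15.5% to 48.8% as group means. Gria1 held 13.1% ± 2.33 of the AMPA sum in iHoxc9 and 4.62% ± 1.21 in control, and the libraries did not overlap. Without scaling by exon length, Grik3 had the higher mean in control, 88 ± 2.71 CPM against 79.5 ± 6.94 CPM for Grik5. Grik5 had the higher mean in every induced group. By the same measure Grin2a was above Grin2c in control, at 3.31 ± 0.753 CPM against 2.56 ± 1.03 CPM.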

How the data were processed

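RNA-seq libraries, 3 per group, were grouped by their labels. The authors made stranded polyA libraries with ERCC spike-ins, aligned single-end reads to mm10 with STAR 2.7.0c (per the submitters' processing notes), counted RefSeq genes with featureCounts and deposited raw counts per Entrez gene. Whether counting used the strand is not given in the sources used here. Symbols were matched for 25275 of the 27179 identifiers. Exon lengths were those of all annotated exons of a gene merged, from the GENCODE annotation of GRCm38. They are not the lengths of the RefSeq genes counted or of the transcripts expressed. All 34 genes were matched.

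Counts were fitted with edgeR 4.0.16 (R 4.3.3; quasi-likelihood test, TMM scaling) in 1 model of the 18 libraries. It held the 20944 genes that had 1 count or more in an induced library, with Benjamini-Hochberg adjustment over all genes. "Rose" and "fell" mean an adjusted p under 0.01, and the study's thresholds add an absolute log2 fold change above 2. CPM uses TMM-scaled totals. The study describes replicates as independent differentiations. Same-numbered iHoxc9 and iHoxc10 libraries deviated together from their group means (correlations 0.579, 0.474 and 0.651). Alternatives were DESeq2 1.42.0, its size factors, other filters, fits of the 2 groups alone, a replicate block and leaving out each library. The model was tested on simulated data. Per-library values were given for the genes past the study's thresholds in any comparison and for the 5 highest per kilobase in control, and at most 4 postsynaptic genes were named per comparison. The members and lists were chosen with earlier results of these data known. A marker gene is not reported here and was left out of its list.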

Additional observations from a re-analysis of the deposited data

Results flagged for a closer look

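The iHoxc9 and iHoxc10 neurons differed for 7 members by edgeR's test between the 2 groups, which share a sequencing run but not a line, so that line and induced gene cannot be told apart. On the log2 scale, iHoxc9 minus iHoxc10, the difference was 6.14 for Grm5, 3.59 for Grin2c, -2.66 for Grin2b, -1.98 for Grm8, -1.15 for Grid1, -0.95 for Cnih2 and -0.72 for Grik3. Only Grin2c passed against control with opposite signs in the 2 lines. Dixon's check for a single outlying library was not made, since every group had 3 libraries. Leaving out control replicate 2 raised the calls over all genes in iHoxc6 from 123 to 1090, with 1 member called in each fit. It also raised them from 443 to 1575 in iHoxc8, from 2950 to 4135 in iHoxc9 and from 3022 to 3780 in iHoxc10. The members called in these 3 groups went from 0 to 1, from 14 to 13 and from 15 to 14.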

How the results depend on the processing

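Of the 57 member calls in the 6 comparisons, 47 held under every alternative run, and no call reversed. DESeq2's Wald test raised the count from 1 to 5 members in iHoxc6 and from 0 to 1 in iHoxc8, where it called 570 and 1336 of all genes against 123 and 443; the absence of a filter beyond 1 count also gave 1 in iHoxc8. An absolute log2 fold change above 1 in place of 2 gave 1 member in iHoxc6, 12 in iHoxc9, 11 in iHoxc10 and 5 in iHoxc9 against iHoxc10. Of all 20944 genes, that threshold passed 55 higher and 46 lower in iHoxc6, and 803 and 833 in iHoxc9. It passed 593 and 844 in iHoxc10, and 365 and 336 in iHoxc9 against iHoxc10. Fitting only the 2 groups gave 14 members for iHoxc9 against iHoxc10, and the replicate block with only those 6 libraries, an alternative chosen after seeing the data, gave 21; over all genes these fits called 10.5% and 27.6%, against 1046 of 20944 genes with all libraries. The cause was not tested. With 1 library left out, the members past an adjusted p of 0.01 numbered 20 to 21 (control against day 2), 1 (iHoxc6), 0 to 1 (iHoxc8), 11 to 13 (iHoxc9), 10 to 16 (iHoxc10) and 5 to 8 (iHoxc9 against iHoxc10). Over all genes, in the same order, these fits called 7883 to 9128, 48 to 1090 and 89 to 1575. The iHoxc9, iHoxc10 and iHoxc9 against iHoxc10 fits called 1509 to 4135, 1633 to 3780 and 661 to 768. Members past the study's thresholds numbered 15 to 16, 0, 0, 3 to 5, 2 to 4 and 3 to 4. The highest values of the study's thresholds, 5 in iHoxc9 and 4 in iHoxc10, came without control replicate 1. Of all genes, that fit passed 308 higher and 221 lower in iHoxc9, and 182 and 143 in iHoxc10. With all libraries these numbers were 321 and 245, and 162 and 149. The 1 of iHoxc8 at an adjusted p under 0.01 came without control replicate 2 or iHoxc8 replicate 2. With all 18 libraries, the replicate block gave 20, 1, 0, 14, 15 and 8 members. Over all genes it called 8719, 124, 339, 2821, 2887 and 998. Outside iHoxc9 against iHoxc10 the libraries share only a number. Members at a mean of 1 CPM or more numbered 13 to 14 at day 2, 20 to 22 in control, 22, 22, 23 and 24 to 25 in the induced groups with 1 library left out. Members at a few counts, such as Neto1, Cacng3 and Grin3b, were limited by depth.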
